A study of Sus scrofa with 28 samples.

Results

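The 6 regulators of muscle development described here, SIX4, EYA2, DACH1, SOX4, MYOD1 and MYF6, were taken by gene symbol from the study's table of regulatory factors and, for a further SIX4 probe set, from the annotation of the array. They are measured by 7 probe sets of the 5226 in the deposited table, 2 of them for SIX4, and 6 of the 310 factors of the study belong to them. The samples were loin muscle (Longissimus dorsi) of 28 male piglets taken at weaning, at 28 days of age, 14 Duroc × Iberian (DU×IB) and 14 purebred Iberian (IB), with 1 porcine array for each piglet. All dams were Iberian sows, so that the genetic types differed in their sires, Duroc or Iberian. The DU×IB piglets came from fewer litters than the IB piglets according to the study's methods, the labels do not give the litter, and littermates are treated as independent. Values are the deposited levels on the log2 scale, differences are DU×IB minus IB, and a test is called past the threshold when its adjusted p lies under 0.10.

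The arrays were hybridized in 2 series, of 16 arrays (8 DU×IB and 8 IB) and of 12 arrays (6 DU×IB and 6 IB), which were recovered from 10 bacterial spike-in probe sets. The spike-in mean ran from 8.93 to 9.68 in the series of 16 and from 6.19 to 7.01 in the series of 12. Of all probe sets 4185 (80.1%) differed between the series in limma. In the series of 16, array medians lay between 6.24 and 6.71 in DU×IB and between 6.01 and 6.69 in IB. In the series of 12 they were higher and closer together, between 6.875 and 7.05 in DU×IB and between 6.97 and 7.02 in IB. Precision is limited by how many arrays there are. The comparisons below therefore have the series as a block or are made on values centred within each series, unless the values are said to be not centred. The table keeps probe sets that vary between arrays, so that 2 of 19 genes of muscle fibre identity, PYGM and CAPN3, could be read as a check of the tissue.

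SIX4 is a homeobox transcription factor that switches on the genes of muscle precursors. It needs partners that bind it, and EYA2, a phosphatase of the eyes absent family, is a coactivator, while DACH1, of the dachshund family, is a corepressor of the same complex. Downstream stand the myogenic regulatory factors, basic helix-loop-helix proteins. MYOD1 commits precursor cells to the muscle lineage, and MYF6 (also known as MRF4) acts late in differentiation and is the member of that family with high expression in grown muscle fibres. SOX4 is a high mobility group factor of the SOXC group that is active in immature and differentiating cells.

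None of the 7 probe sets passed the threshold between DU×IB and IB when both series were fitted together (0 of 7, with 2.77% of all 5226 probe sets past the threshold in limma). The log2 differences were between -0.50 for MYF6 and 0.44 for SOX4, 2 were above 0 and 5 below it, and none of the 7 had an unadjusted p under 0.05, which 13.8% of all probe sets had. The median size of the difference was 0.28 for these probe sets and 0.16 for all probe sets. In bulk muscle, fewer cells of a type and less RNA per cell cannot be told apart, which holds for every level given here.

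**Figure D1:**
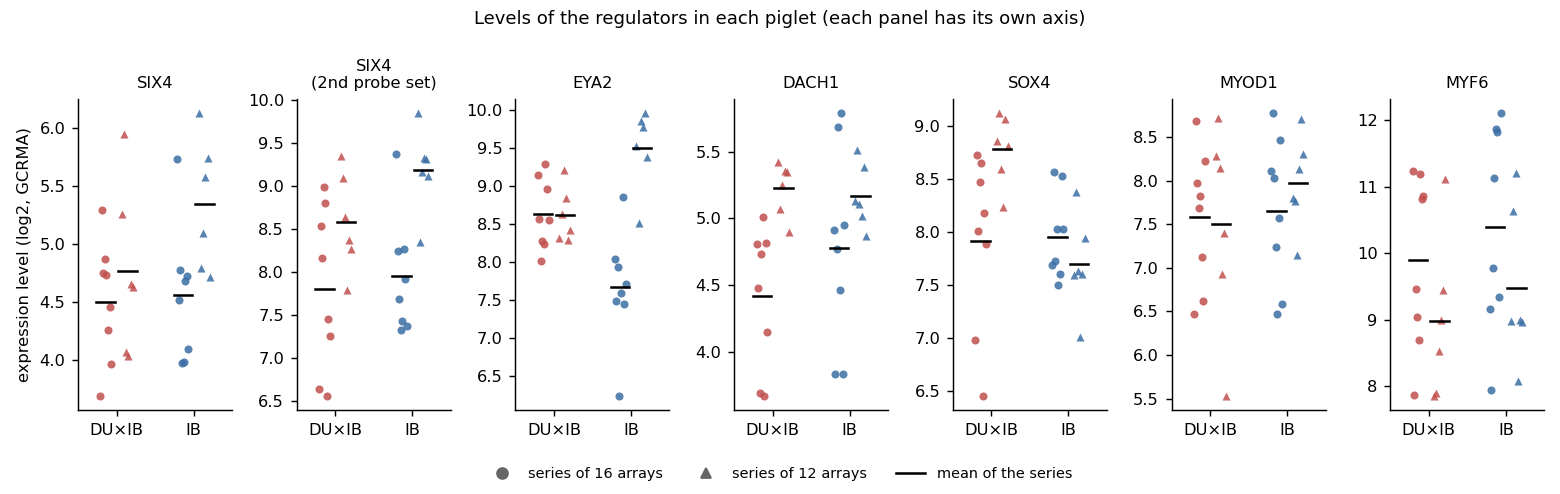
Expression level (log2, GCRMA) of each probe set in every piglet, DU×IB left of IB, with circles for the series of 16 arrays, triangles for the series of 12 and black lines for the mean of each series. In EYA2 the DU×IB means are 8.63 in the series of 16 and 8.62 in the series of 12, while the IB piglets lie low in the series of 16 and high in the series of 12, with means of 7.67 and 9.51.

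Among the DNA-binding factors, SIX4 had overlapping levels in the genetic types. The probe set of the study's table had a lowest, median and highest level of 3.70, 4.64 and 5.94 in DU×IB, against 3.98, 4.75 and 6.13 in IB. The ranges overlapped almost throughout, and 2 of 14 DU×IB piglets lay below every IB piglet. Means were 4.62 ± 0.61 in DU×IB and 4.90 ± 0.68 in IB (SD, n = 14 each), a log2 difference of -0.28 (SE 0.22, 95% interval -0.72 to 0.17, limma adjusted p = 0.642). The second SIX4 probe set, named by the annotation of the array alone, had a lowest, median and highest level of 6.56, 8.33 and 9.36 in DU×IB, against 7.33, 8.31 and 9.85 in IB (log2 difference -0.34, SE 0.26, adjusted p = 0.618). The 2 probe sets followed each other from piglet to piglet, with r = 0.74 in DU×IB and 0.88 in IB. The piglets with the highest value in IB (replicate 9) and the lowest (replicate 4) were the same for both.

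The coactivator EYA2 had differences of opposite sign in the 2 series. Over both series its lowest, median and highest level were 8.01, 8.57 and 9.30 in DU×IB, against 6.24, 8.28 and 9.96 in IB, so that DU×IB lay within the range of IB. The SD was 0.40 in DU×IB and 1.14 in IB (n = 14 each), and the mean difference was 0.17 (SE 0.26, adjusted p = 0.849). Without IB replicate 4 it was 0.0278, and without DU×IB replicate 1 or 6 it was 0.0997 or 0.0884. In the series of 16, all 8 DU×IB piglets (8.01 to 9.30) lay above the IB median, and IB ran from 6.24 to 8.86, a difference of 0.97 (SE 0.29, limma adjusted p = 0.508, unadjusted p = 0.00405, with 0.172% of all probe sets past the threshold in that series). In the series of 12, all 6 DU×IB piglets (8.29 to 9.21) lay below the IB median, and IB ran from 8.51 to 9.96. There EYA2 was lower in DU×IB by a log2 difference of -0.89 (SE 0.25, limma adjusted p = 0.0937), which passed the threshold, as did 1.99% of all probe sets in that direction.

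The interaction of genetic type and series for EYA2 was -1.85 (SE 0.41), with the smallest p of all 5226 probe sets (9.7e-05 in limma) and an adjusted p of 0.507. No probe set passed the threshold for an interaction after adjustment, and 6.37% had an unadjusted p under 0.05. The DU×IB mean of EYA2 was 8.63 in the series of 16 and 8.62 in the series of 12, while the IB means were 7.67 and 9.51. The fit over both series therefore averages a pair of differences of opposite sign, and what separates the piglets of one series from those of the other, apart from the hybridization, is not given in the labels and was not tested.

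The corepressor DACH1 was low on this scale, with a lowest, median and highest level of 3.67, 4.86 and 5.42 in DU×IB, against 3.83, 4.99 and 5.79 in IB. The groups overlapped, and the log2 difference was -0.18 (SE 0.19, adjusted p = 0.746), which was -0.104 and -0.0959 without IB replicates 4 and 6, and -0.118 and -0.117 without DU×IB replicates 3 and 6. Within the series of 12 its levels were close together, between 4.90 and 5.42 in DU×IB and between 4.87 and 5.51 in IB, while in the series of 16 they ran from 3.67 to 5.01 in DU×IB and from 3.83 to 5.79 in IB. DACH1 had 1 of the 3 differences that changed sign between the series (-0.36 in the series of 16 and 0.05 in the series of 12), along with EYA2 and SOX4, against 44.4% of all probe sets that changed sign.

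SOX4 had the larger of the 2 differences above 0. Its lowest, median and highest level were 6.46, 8.53 and 9.12 in DU×IB, against 7.01, 7.71 and 8.56 in IB, and 7 of 14 DU×IB piglets lay above every IB piglet while 2 lay below every one. The log2 difference was 0.44 (SE 0.22, 95% interval -0.01 to 0.90, adjusted p = 0.383). In the series of 12, SOX4 was higher in DU×IB, at 8.24 to 9.12 against 7.01 to 8.38 in IB, and 5 of 6 DU×IB piglets exceeded every IB piglet (log2 difference 1.08, SE 0.22, limma adjusted p = 0.0562, with 2.39% of all probe sets past the threshold in that direction). In the series of 16 the difference was -0.04 (SE 0.30, adjusted p = 0.997). The interaction with series was 1.12 (SE 0.41, unadjusted p = 0.0104, adjusted p = 0.714 in limma), the 72nd smallest p of all probe sets.

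Markers of fibroblasts and collagens were set beside SOX4. Of 19 listed genes 10 were measured, all 10 had a higher mean in DU×IB and 7 passed the threshold, where 2.07% of all probe sets passed in that direction. COL1A1, COL5A1, COL12A1, COL14A1, FBN2, LOX, POSTN and SFRP2 are among the genes that the study found higher in DU×IB on these same arrays. These counts are therefore no independent result. The mean level of the 10 genes ran from 8.57 to 9.79 in DU×IB and from 6.70 to 9.08 in IB. Over the 28 arrays, centred within genetic type and series, this mean level had r = 0.53 with SOX4. All 10 differences were also above 0 in the series of 16, where that of SOX4 was -0.04. In the series of 12 that of SOX4 was 1.08, and those of the markers were larger than in the series of 16, except for LOX (0.90 in the series of 16 and 0.87 in the series of 12). For COL1A1 they were 0.81 in the series of 16 and 1.74 in the series of 12. The part of these markers in the level of SOX4 was not tested.

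**Figure D2:**
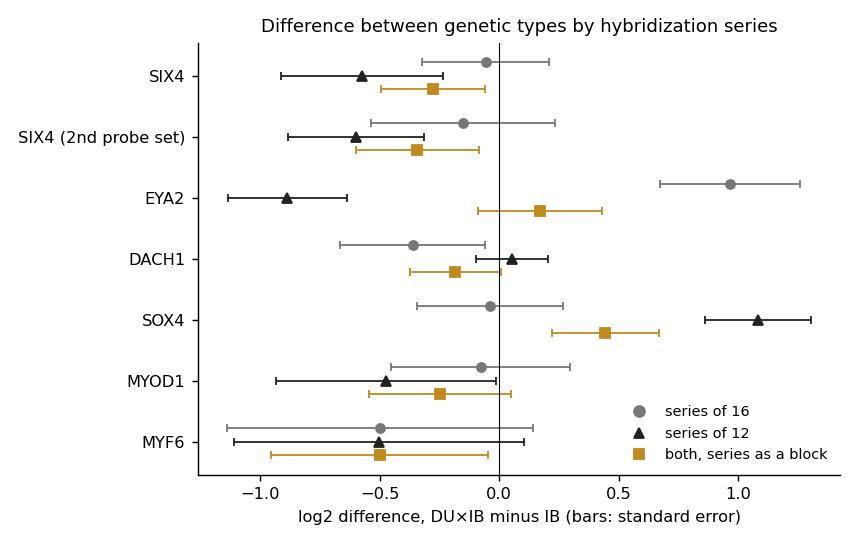
Log2 difference between genetic types (DU×IB minus IB) with its standard error for each probe set, in the series of 16 arrays (circles), in the series of 12 (triangles) and in both with series as a block (squares). EYA2 lies at 0.97 in the series of 16 and at -0.89 in the series of 12, and SOX4 at -0.04 and 1.08.

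The myogenic regulatory factors varied more between piglets than between genetic types. MYOD1 had a lowest, median and highest level of 5.53, 7.75 and 8.72 in DU×IB, against 6.47, 7.91 and 8.78 in IB (log2 difference -0.25, SE 0.30, 95% interval -0.85 to 0.36, adjusted p = 0.796). The lowest value was that of 1 DU×IB piglet of the series of 12 (replicate 14), without which the difference was -0.0789. MYF6 had a lowest, median and highest level of 7.85, 9.25 and 11.2 in DU×IB, against 7.94, 9.56 and 12.1 in IB (log2 difference -0.50, SE 0.46, 95% interval -1.43 to 0.43, adjusted p = 0.701). Between the lowest and the highest piglet of one genetic type its level thus differed 10.4-fold in DU×IB and 17.9-fold in IB, the widest range of the 7 probe sets in both. The difference of MYF6 was the same in both series, -0.50 in each, and it lay within the spread between piglets. With array weights it was -0.88 (limma adjusted p = 0.307).

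Few other genes of these pathways have a probe set in the table. Of 14 listed genes of the SIX4, EYA2, DACH1 and PAX families, 3 have a named probe set in the table, and these are SIX4, EYA2 and DACH1. The list leaves out PAX2, which the study names among its regulatory factors and which is not described here. Of 13 SOX genes SOX4 is the one measured. Of 38 myogenic regulatory factors and their partners 15 were measured, 6 higher and 9 lower in DU×IB, and 0 passed the threshold in limma (4 had an unadjusted p under 0.05), with a median difference of -0.08 against 0.02 for all probe sets. These 4 were BHLHB2, a circadian helix-loop-helix repressor (-0.68, SE 0.33, adjusted p = 0.353), FHL3, a LIM protein that binds MYOD1 (-0.57, SE 0.25, adjusted p = 0.300), SKI, a corepressor of the transforming growth factor pathway (-0.39, SE 0.18, adjusted p = 0.321), and TCF12, an E protein that pairs with MYOD1 (0.37, SE 0.16, adjusted p = 0.287). Of 25 genes of satellite cells and myoblast fusion 6 were measured, and of 24 genes of immature and denervated muscle 6, with 0 past the threshold in limma and 1 with an unadjusted p under 0.05 in each list. Among 16 genes of slow fibres 6 were measured and 1 passed, CASQ2, the calcium-storing protein of slow fibres, which was higher in DU×IB (0.97, SE 0.29, adjusted p = 0.0927).

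Within each genetic type the regulators were correlated over the 14 piglets, with values centred within each series. For the 21 pairs of probe sets, 10 passed the threshold in DU×IB and 2 in IB (permutation tests within series, Benjamini-Hochberg over the 21 pairs). 1 of the called pairs in each type joins both SIX4 probe sets, so that 9 pairs of different genes passed in DU×IB and 1 in IB. The called correlations were of a size of at least 0.59 in DU×IB, reached by 16.2% of the 47895 pairs among the 310 factors in DU×IB, and of at least 0.87 in IB, reached by 1.05% of these pairs in IB. The median size of r over the 20 pairs of different genes was 0.53 in DU×IB and 0.37 in IB, beside 0.30 and 0.29 for all pairs of factors. The permutations treat littermates as independent, and the DU×IB piglets came from fewer litters. A part of the litter in these correlations, and in their differences between genetic types, cannot be told apart.

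MYOD1 and MYF6 were opposed in both genetic types. Piglets with high MYF6 had low MYOD1, with r = -0.82 in DU×IB (permutation p = 0.0008, adjusted p = 0.00646; rho = -0.75, adjusted p = 0.0115) and r = -0.87 in IB (permutation p = 0.00018, adjusted p = 0.00189, with rho = -0.82, adjusted p = 0.0286). Without the 2 piglets farthest from the median of MYOD1, r was -0.69 in DU×IB and -0.84 in IB. Within the series of 16, r was -0.73 in DU×IB (exact p = 0.0503) and -0.92 in IB (exact p = 0.00233), and within the series of 12 it was -0.96 in DU×IB (exact p = 0.00833) and -0.74 in IB (exact p = 0.0917). Of all pairs of factors, 3 of 47895, this pair included, had correlations at or below these values in both genetic types. The difference between genetic types had an adjusted p of 0.88 in the permutation test.

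The extremes show the opposition in single piglets. In DU×IB, replicate 10 had 8.72 for MYOD1 and 7.90 for MYF6, and replicate 14 had 5.53 for MYOD1 and 11.1 for MYF6. In IB, replicate 2 had 8.78 for MYOD1 and 7.94 for MYF6, and replicate 5 had 6.47 for MYOD1 and 11.9 for MYF6. In the series of 16 the DU×IB replicate 8 departed from this, with 8.23 for MYOD1 and 10.9 for MYF6.

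**Figure D3:**
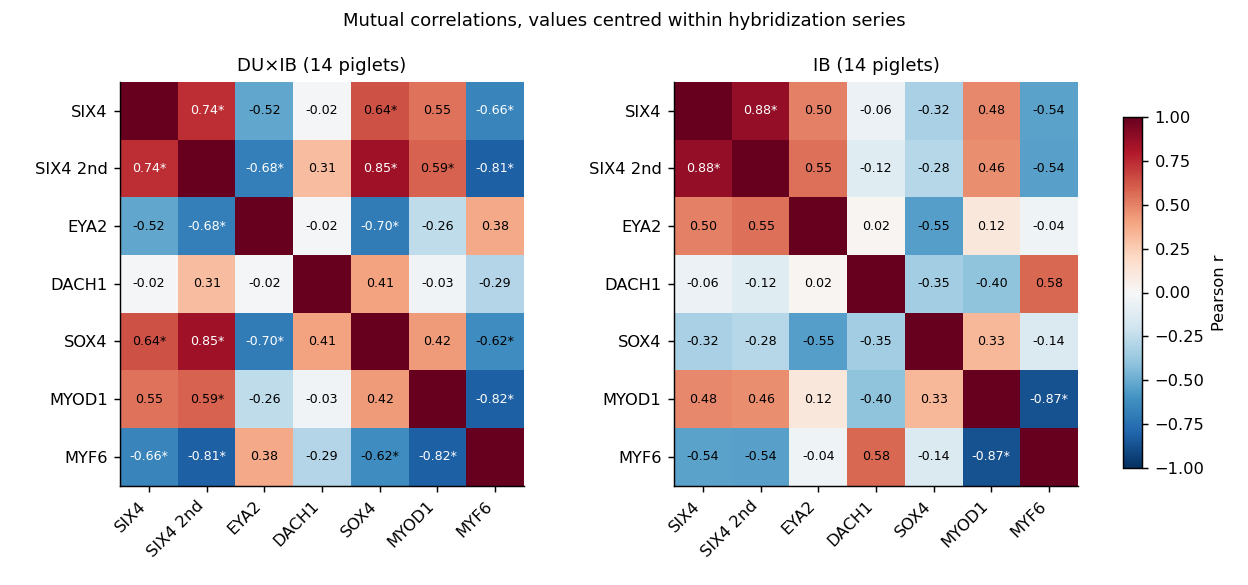
Pearson r between the 7 probe sets in DU×IB (left) and IB (right), 14 piglets each, on values centred within series, from blue (-1) to red (1), with a star at an adjusted p under 0.10. SIX4 and EYA2 have r of -0.52 in DU×IB and 0.50 in IB, and MYOD1 and MYF6 -0.82 and -0.87.

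SIX4 and its coactivator EYA2 had correlations of opposite sign in the genetic types. Piglets with more SIX4 had less EYA2 in DU×IB (r = -0.52, permutation adjusted p = 0.108, and rho = -0.51, adjusted p = 0.122) and more EYA2 in IB (r = 0.50, permutation adjusted p = 0.215, and rho = 0.59, adjusted p = 0.143), and neither value alone passed the threshold. The difference between genetic types did pass it (difference of Fisher's z -1.13, permutation p = 0.00223, adjusted p = 0.0251). With the second SIX4 probe set, r with EYA2 was -0.68 in DU×IB (permutation adjusted p = 0.0463, with rho = -0.68, adjusted p = 0.0574) and 0.55 in IB (permutation adjusted p = 0.215, with rho = 0.60, adjusted p = 0.143), and the difference passed the threshold as well (adjusted p = 0.0281). A difference of this size or more was found for 1.14% of the pairs of factors with the first SIX4 probe set and for 0.142% with the second. The study had named SIX4, EYA2 and SOX4 by how differently they correlated with its gene list in the genetic types, on these same arrays. These shares and the tests of the difference are therefore not independent of that choice.

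The signs of SIX4 with EYA2 were the same in each series. For the first probe set r was -0.59 in DU×IB and 0.50 in IB in the series of 16, and -0.49 in DU×IB and 0.53 in IB in the series of 12. The exact p of the difference was 0.0197 in the series of 16 and 0.106 in the series of 12, with adjusted p-values of 0.123 and 0.75. For the second probe set r was -0.84 in DU×IB and 0.49 in IB in the series of 16, and -0.24 in DU×IB and 0.73 in IB in the series of 12. Without the 2 piglets farthest from the median of SIX4, r of the first probe set was -0.73 in DU×IB and 0.61 in IB.

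SIX4 and SOX4 also differed between genetic types. In DU×IB piglets with more SIX4 had more SOX4, with r = 0.64 (permutation adjusted p = 0.0178, with rho = 0.81, adjusted p = 0.00637) for the first SIX4 probe set and r = 0.85 (permutation adjusted p = 0.00646, with rho = 0.82, adjusted p = 0.00924) for the second. In IB, r was -0.32 (permutation adjusted p = 0.421) and -0.28 (permutation adjusted p = 0.475), with rho = -0.42 and -0.41 (adjusted p = 0.288 for both). The permutation test of the difference gave an adjusted p of 0.0251 for either probe set. With array median centring the call of the first probe set was lost (permutation adjusted p = 0.201, with r = 0.62 in DU×IB and -0.12 in IB). In DU×IB the piglets replicate 1 and replicate 6 of the series of 16 had the lowest values of both, at 6.65 and 6.56 for the second SIX4 probe set and 6.98 and 6.46 for SOX4, and without the 2 piglets farthest from the median of that probe set r was 0.81 in DU×IB and 0.03 in IB. Within the series r of the second probe set with SOX4 was 0.89 (16 arrays) and 0.63 (12 arrays) in DU×IB, against -0.06 and -0.70 in IB. The pairs of SIX4 with EYA2 and with SOX4 share the SIX4 values and are no independent results. The tests of SIX4 with SOX4 are also not independent of the study's choice of both from correlations on these same arrays.

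**Figure D4:**
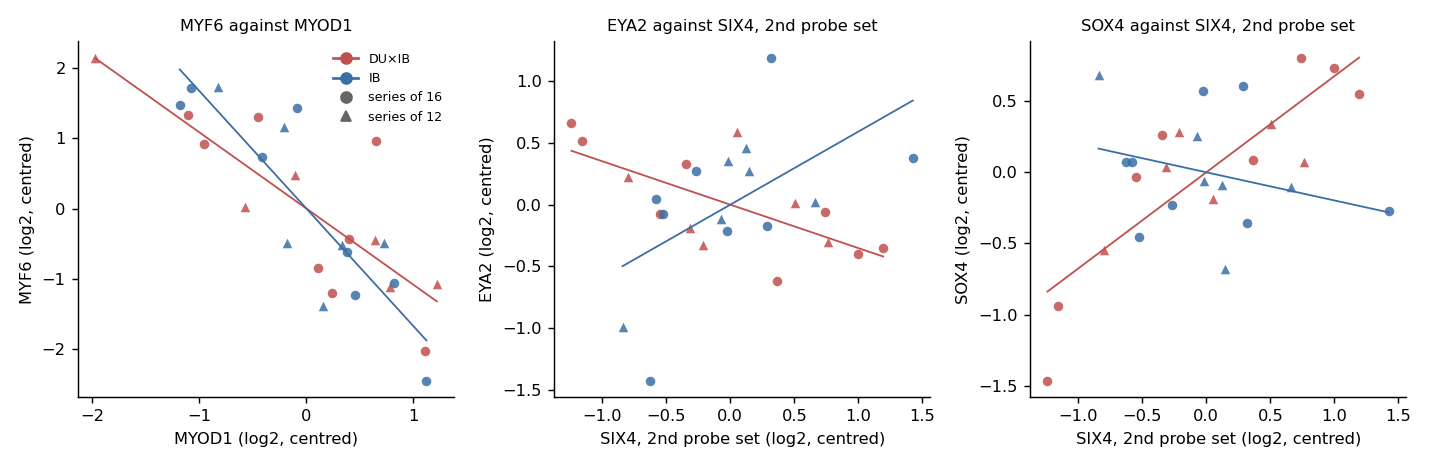
Values of single piglets, centred within genetic type and series (log2), for MYF6 against MYOD1, for EYA2 against the second SIX4 probe set and for SOX4 against the second SIX4 probe set, DU×IB in red and IB in blue, with circles for the series of 16, triangles for the series of 12 and least-squares lines. The lines of MYF6 fall in both genetic types (r of -0.82 in DU×IB and -0.87 in IB), while those of EYA2 run opposite ways (-0.68 and 0.55).

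In DU×IB the remaining called pairs joined MYF6 with SIX4 and SOX4, EYA2 with SOX4, and MYOD1 with SIX4. Not past the threshold there were EYA2 with MYF6 (r = 0.38, permutation adjusted p = 0.294), EYA2 with MYOD1 (r = -0.26, permutation adjusted p = 0.427) and SOX4 with MYOD1 (r = 0.42, permutation adjusted p = 0.144). MYF6 had r = -0.66 and -0.81 with the first and the second SIX4 probe set (permutation adjusted p = 0.0426 and 0.00646) and r = -0.62 with SOX4 (permutation adjusted p = 0.047). EYA2 had r = -0.70 with SOX4 (permutation adjusted p = 0.0326), and MYOD1 had r = 0.59 with the second SIX4 probe set (permutation adjusted p = 0.0468). In rank correlation they had rho = -0.71, -0.84, -0.71, -0.62 and 0.57 in this order (adjusted p between 0.00637 and 0.0637, permutation). In the series of 16 r was -0.91, -0.91, -0.81, -0.75 and 0.61, and in the series of 12 it was -0.42, -0.64, -0.08, -0.60 and 0.71, so that MYF6 with SOX4 was near 0 in the smaller series. Without the 2 piglets farthest from the median of the SIX4 probe set of the pair, of SOX4 for its pair with MYF6 or of EYA2 for its pair with SOX4, r was between -0.81 and -0.50 for the 4 pairs below 0 and 0.65 for MYOD1 with SIX4. The call of MYF6 with SOX4 was lost without any of 4 DU×IB piglets (replicates 1, 2, 5 and 6), and the calls of EYA2 with SOX4 and with the second SIX4 probe set without replicate 6. The call of MYF6 with the first SIX4 probe set was lost without replicate 2, and that of MYOD1 with the second without replicate 1.

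In IB the same pairs had the same sign but did not pass the threshold, with r = -0.54 for MYF6 with either SIX4 probe set (permutation adjusted p = 0.212 for both), -0.14 with SOX4 (0.836, rho = -0.015), -0.55 for EYA2 with SOX4 (0.212) and 0.46 for MYOD1 with the second SIX4 probe set (0.279). The sign of MYF6 with SOX4 in IB was not stable, at 0.60 in the series of 12 and between -0.37 and 0.13 without 1 piglet. For these pairs the difference between genetic types did not pass the threshold in the permutation test, with adjusted p-values between 0.298 and 0.77. DACH1 took part in no called pair. Its r with MYF6 was -0.29 in DU×IB and 0.58 in IB (permutation p of the difference 0.042, adjusted p = 0.177).

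The genes of the table whose levels were most like those of each regulator were taken over the 28 arrays, centred within genetic type and series, as a description. MYF6 had its highest r with CREM, a modulator of the response to cyclic AMP (0.93, with 0.95 in DU×IB and 0.92 in IB), with RCAN1, an inhibitor of calcineurin (0.92), and with ABRA, an actin-binding protein of striated muscle (0.90). Its lowest r were with the zinc finger gene ZNF3 (-0.89), with MYOD1 (-0.83) and with SIK3, a salt-inducible kinase (-0.82). MYOD1 had its lowest r with MYF6, with RCAN1 (-0.82) and with ABRA (-0.80), which are also at the top of the MYF6 list, and its highest with SERTAD1, a regulator of transcription in the cell cycle (0.80), with TBCC, a tubulin folding factor (0.79), and with ZNF3 (0.74).

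ABRA was also among the lowest for both SIX4 probe sets, with r = -0.78 for the first and -0.80 for the second. The first SIX4 probe set had its lowest r with ATF3, a stress-induced factor (-0.81, with -0.92 in DU×IB and -0.82 in IB), and with RBM23 (-0.79), and among its highest with ZFP36L1, a protein that binds messenger RNA (0.78), and with STEAP4, a metalloreductase (0.78). The second probe set had the homeobox gene HOXA3 (0.78) and PHF17 (0.77) among its highest, and XIRP1, an actin-binding protein (-0.74), and IER3, an immediate early gene (-0.74), among its lowest.

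EYA2 and SOX4 had few close neighbours. A size of r of at least 0.6 was reached by 0.484% of the 2274 other named genes for EYA2 and for SOX4, by 2.64% for either SIX4 probe set, by 2.81% for MYOD1, by 5.19% for MYF6 and by 6.86% for DACH1, where the median over all factors was 4.02%. EYA2 had its highest r with ATG12, an autophagy gene (0.66), which was -0.05 in DU×IB and 0.88 in IB, with SESN1, a stress-responsive sestrin (0.58), and with PLA1A, a phospholipase (0.57), and its lowest with the splicing factor PRPF19 (-0.68), with FAM129A (-0.67) and with S1PR5 (-0.67). SOX4 had its highest r with CXCR4, a chemokine receptor of migrating precursor cells (0.71, with 0.83 in DU×IB and 0.45 in IB), with LXN (0.66) and with MBNL3 (0.65), and its lowest with SON (-0.65), with FKBP5, a cochaperone of the glucocorticoid receptor (-0.63), and with glutamine synthetase, GLUL (-0.59).

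DACH1 had its highest r with TAF1D, a subunit of a factor of RNA polymerase I (0.80), with the zinc finger gene ZNF207 (0.79) and with NSRP1, a splicing regulator (0.77), and its lowest with SART1, a splicing factor (-0.78), with the histone methyltransferase ASH1L (-0.75) and with MON1A (-0.74). With the first principal component of the centred values, which holds 24.5% of their variance, DACH1 had r = 0.64 (permutation p = 0.00661, adjusted p = 0.0396) and rho = 0.70 (adjusted p = 0.00798), which was 0.80 without the 2 farthest arrays and 0.68 and 0.21 in the series of 16 and of 12. Its r of 0.53 with the array median did not pass the threshold (permutation p = 0.034, adjusted p = 0.106, with rho = 0.58, adjusted p = 0.0378), and was 0.67 without the 2 farthest arrays and 0.55 and 0.22 in the series of 16 and of 12. The part of the array median in the level of DACH1 was not tested.

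The levels of each regulator were also set against the mean level of 9 gene lists, IGF2, the array median and the first component, 84 relations over 28 arrays that were chosen after the values were seen, of which 26 passed the threshold (permutation within genetic type and series, Benjamini-Hochberg over the 84). The share for the other factors is not given, so that the count cannot be read as particular to these regulators. MYF6 was positively correlated with the mean of 6 genes of immature and denervated muscle (ACTC1, TNNT2, ANKRD1, XIRP1, XIRP2 and GADD45A), with r = 0.84 and rho = 0.83 (permutation p = 1e-05, the smallest these permutations can give, adjusted p = 0.00084), and MYOD1 negatively (r = -0.70, rho = -0.73, permutation p = 0.00012, adjusted p = 0.00504). Between genetic types these 6 genes went both ways. ACTC1 (log2 difference 1.00), TNNT2 (0.60) and XIRP2 (0.16) were higher in DU×IB, and ANKRD1 (-0.40), XIRP1 (-0.32) and GADD45A (-0.58) were lower. The r of MYF6 with the single genes is not given, so that the mean need not stand for each of them. With the mean, the r of MYF6 was 0.80 in DU×IB and 0.87 in IB, 0.89 in the series of 16 and 0.74 in the series of 12, and 0.83 without the 2 arrays farthest from the median of the list. That of MYOD1 was -0.75 in DU×IB and -0.71 in IB, -0.79 and -0.59 in the 2 series, and -0.77 without the 2 farthest arrays.

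The 6 genes of slow fibres were CASQ2, MYL3, TPM3 and PLN, higher in DU×IB, and ATP2A2 and the coactivator PPARGC1A, lower in DU×IB. With their mean MYF6 had r = 0.61 (rho = 0.55, permutation p = 0.0008, adjusted p = 0.015) and MYOD1 r = -0.61 (rho = -0.65, permutation p = 0.00089, adjusted p = 0.015). Without the 2 farthest arrays these were 0.64 and -0.74, and within the series of 16 and of 12 they were 0.60 and 0.66 for MYF6 and -0.67 and -0.55 for MYOD1. By genetic type, r was 0.72 in DU×IB and 0.535 in IB for MYF6, and -0.90 in DU×IB and -0.335 in IB for MYOD1. With the mean of 6 genes of satellite cells and myoblast fusion the second SIX4 probe set had r = 0.74 (rho = 0.70, permutation p = 0.00018, adjusted p = 0.00504), 0.74 also without the 2 farthest arrays, but 0.88 in the series of 16 and 0.23 in the series of 12. SOX4 had r = 0.59 with that mean (rho = 0.49, permutation p = 0.00545, adjusted p = 0.0383), 0.50 without the 2 farthest arrays, and 0.71 and 0.13 in the series of 16 and of 12. These were 0.88 in DU×IB and 0.55 in IB for the second SIX4 probe set and 0.84 in DU×IB and 0.19 in IB for SOX4, and the difference between genetic types was not tested. MYF6 had r = -0.51 with that mean (rho = -0.54, permutation p = 0.0102, adjusted p = 0.0504), -0.585 without the 2 farthest arrays and -0.62 and -0.21 in the series of 16 and of 12. CXCR4 is 1 of the 6 genes of this list.

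The markers of other cell types were set beside the regulators in the same way. The 5 measured adipocyte genes went both ways between genetic types. RBP7 (log2 difference 1.58, limma adjusted p = 0.0202) and FABP4 (0.37) were higher in DU×IB, and SCD (-0.71), CFD (-0.44) and PNPLA2 (-0.43) were lower. Their mean had r = -0.53 with EYA2 (rho = -0.53, permutation p = 0.00708, adjusted p = 0.0396) and 0.52 with SOX4 (rho = 0.50, permutation p = 0.00547, adjusted p = 0.0383). Without the 2 farthest arrays these were -0.54 and 0.46. Within the series of 16 and of 12 they were -0.72 and -0.27 for EYA2 and 0.65 and 0.33 for SOX4. The mean of fibroblast and collagen genes had r = 0.53 with SOX4 (rho = 0.57, permutation p = 0.00237, adjusted p = 0.0221), 0.50 without the 2 farthest arrays and 0.51 and 0.69 in the series of 16 and of 12. The mean of the 7 measured endothelial genes had r = 0.60 with the second SIX4 probe set (rho = 0.49, permutation p = 0.00519, adjusted p = 0.0383), 0.51 without the 2 farthest arrays, and 0.70 and 0.01 in the series of 16 and of 12. The first SIX4 probe set had r = 0.445 with it (rho = 0.39, permutation p = 0.0155, adjusted p = 0.0721), 0.43 without the 2 farthest arrays, and 0.66 and -0.02 in the series of 16 and of 12. MYF6 had r = -0.48 with it (rho = -0.44, permutation p = 0.0201, adjusted p = 0.0804), -0.37 without the 2 farthest arrays, and -0.62 and 0.01 in the series of 16 and of 12. The mean of endothelial genes ran from 6.53 to 8.06 in DU×IB and from 6.45 to 8.22 in IB, and the mean of the adipocyte genes ran from 8.35 to 9.27 in DU×IB and from 7.65 to 9.63 in IB. The part of these cell types in the levels of the regulators was not tested. The other 12 relations past the threshold had a size of r between 0.41 and 0.635, and 4 of them are with the mean of the myogenic factors and partners, which holds MYOD1 and MYF6 themselves.

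The question whether the regulators were tied differently to the genes that distinguish the genetic types was addressed with the genes of the study's 3 networks, 64 different genes in all. Of the 448 pairs of a probe set with a network gene, 0 (0%) had a correlation that differed between DU×IB and IB after adjustment, by permutation on values centred within series, while 44 had an unadjusted p under 0.05. With Spearman correlation 0 differed after adjustment and 42 had an unadjusted p under 0.05. Within the genetic types 0 of the 448 pairs passed the threshold in DU×IB, where 35 had an unadjusted p under 0.05, and 1 (0.223%) in IB, where 59 had, MYF6 with DNAJB9, a cochaperone of the endoplasmic reticulum (r = 0.55 in DU×IB and 0.91 in IB, adjusted p = 0.0224 in IB by permutation).

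These counts depended on the centring. On values not centred by series, 48 pairs differed between genetic types, 18 of them with EYA2, 15 with SOX4, 6 with DACH1, 5 and 4 with the first and the second SIX4 probe set, and 0 with MYOD1 or MYF6. The share for the other factors is not given, so that the counts, centred or not, cannot be read as particular to these regulators. Among the differences of lowest p on centred values were those of SIX4 with SFRP2, a secreted Wnt modulator (r = 0.56 in DU×IB and -0.58 in IB, permutation p = 0.00092, adjusted p = 0.111) and of the second SIX4 probe set with PLA1A (-0.32 in DU×IB and 0.80 in IB, permutation p = 0.00113, adjusted p = 0.111). The median size of the difference of Fisher's z with the network genes was 0.45 for either SIX4 probe set, and 11 of the 310 factors had a larger median, while the median over all factors was 0.30. The network genes were chosen on these same arrays, and the study named SIX4 by how differently it correlated with such genes. This rank of SIX4 is therefore no independent result. For MYOD1 the median size was 0.23, with 257 factors above.

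The regulatory impact factors weigh how differently a factor correlates in the genetic types with the 256 genes of the study's list (RIF1, coded IB minus DU×IB and weighted by the level and the difference of each gene, and RIF2, from the levels and squared correlations in each type). The list was chosen on these arrays and the study picked regulators by such scores, and the formulas were not in the sources used here, so that the general published form was used, and the scores are given as a description, in units of the SD over the 310 factors. On values not centred by series SIX4 had a RIF1 of -3.39 (jackknife SE 2.03), second in size among the factors, and a RIF2 of 2.56 (SE 0.74), 7th in size. Centred by series they were -4.08 (SE 1.64), again second, and 2.58 (SE 0.87), 6th.

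EYA2 had a RIF2 of 3.34 (SE 0.81), second in size, which was 1.49 (SE 1.44) and 38th on centred values, and a RIF1 of -1.55 (SE 2.17), 33rd in size, which was -0.42 (SE 1.88) on centred values. DACH1 had a RIF2 of -2.34 (SE 0.86), 11th in size, which was -1.27 (SE 1.02) and 59th on centred values. SOX4 had a RIF1 of -2.04 (SE 2.04), which was 1.20 (SE 0.99) on centred values. MYOD1 and MYF6 had scores between -0.67 and 0.75 on values not centred and between -1.02 and 0.53 on centred ones.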

How the data were processed

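Loin muscle RNA of 28 piglets was hybridized to 1 array each. The authors processed the scanned images with GCOS and deposited log2 values, which they computed in BRB-ArrayTools by GCRMA, a method that corrects the background by probe sequence, with quantile normalization, and kept the 5226 probe sets that met their variation filter. The SIX4, MYOD1 and MYF6 probe sets carry these names in the array annotation as well, while EYA2, DACH1 and SOX4 are named only in the study's table of factors.

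The members, gene lists and tests were chosen with earlier results of these data known. Genetic types were compared with limma 3.58.1 (R 4.3.3, two-sided, lmFit and eBayes) with hybridization series as a block, Benjamini-Hochberg over all 5226 probe sets and 0.10 as the threshold. The study's methods name the series but the labels do not, and the 10 spike-in probe sets part the arrays into replicate numbers 1 to 8 and 9 to 14 of each genetic type. Correlations (Pearson and Spearman) used values centred within genetic type and series, 100000 permutations within series (seed 1, two-sided) or all permutations within a single series, and the difference between genetic types permuted the genetic type within series. Named genes are the members, the measured genes of their pathway lists, genes of the lists past the threshold, and for each member the 3 named genes of highest and of lowest r, where a gene with several probe sets is given by the one in the study's tables, otherwise by the one of highest mean. A few genes that the rule names are not reported here, and the network genes of lowest p were named after their values were seen. No column was left out, and the tests were tried on simulated data. Alternatives were other scalings, filters, priors, covariates and thresholds, single series, and leaving out each piglet. Python 3.11.15, numpy 2.4.6, scipy 1.17.1 and pandas 2.3.3 were used.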

Additional observations from a re-analysis of the deposited data

Results flagged for a closer look

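The correlation of SIX4 with EYA2 differed between DU×IB and IB (permutation adjusted p = 0.0251 over 21 pairs), with r = -0.52 in DU×IB and 0.50 in IB, and so did that of the second SIX4 probe set with EYA2 (adjusted p = 0.0281), with r = -0.68 in DU×IB and 0.55 in IB. The correlation of SIX4 with SOX4 differed as well (adjusted p = 0.0251), with r = 0.64 in DU×IB and -0.32 in IB, as did that of the second SIX4 probe set with SOX4 (adjusted p = 0.0251), with r = 0.85 in DU×IB and -0.28 in IB. These 4 were noted because the difference between the genetic types itself passed the threshold. They rest on 2 probe sets of 1 gene and share its values, and littermates were permuted as independent. The study had named SIX4, EYA2 and SOX4 by differences of correlation between the genetic types on these same arrays, so the tests are not independent of that choice. Without IB replicate 10, the call of the second SIX4 probe set with EYA2 was lost, while the other 3 held when any piglet was left out. With array median centring the call of the first SIX4 probe set with SOX4 was lost (permutation adjusted p = 0.201).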

How the results depend on the processing

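No member passed the threshold between genetic types with any alternative scaling, filter, prior, weight or threshold, without the series term, with the replicate number as a block (0 of 7) or without any piglet (0 to 0), and 2 passed it in the series of 12 alone. There the difference of EYA2 was -0.89 and that of DACH1 0.0549, and in the series of 16 alone that of SOX4 was -0.0378, each against the sign of the fit over both series. With the replicate block the adjusted p of SOX4 was 0.331 and 145 probe sets passed, and the numbers pair no piglets: within series 2 of 14 same-numbered pairs had r over 0.1 (-0.33 to 0.54), and 1 piglet correlated best with its own number. Of the 21 pairs, 10 passed in DU×IB, 7 to 13 without 1 piglet and 0 in the series of 12. In IB 2 passed, 2 to 3 without 1 piglet, 4 on values not centred by series, 1 without the 2 farthest arrays and 0 in the series of 12. The difference between genetic types passed for 4 pairs, 3 to 5 without 1 piglet, 3 with array median centring (the first SIX4 probe set with SOX4 then had an adjusted p of 0.201), and 0 within either series alone, where fewer piglets were compared (5 and 1 had an unadjusted p under 0.05 in the series of 16 and of 12). In IB, r of the second SIX4 probe set with SOX4 was 0.0306 without the 2 farthest arrays, and r of SOX4 with MYF6 was 0.60 in the series of 12 and -0.37 to 0.13 without 1 piglet. On values not centred by series 48 pairs with network genes differed between genetic types, 35 passed in DU×IB and 71 in IB, where array median centring gave 2 and Spearman correlation 3. For these counts the share of the other factors is not given. The study named SIX4, EYA2, DACH1 and SOX4 by their RIF scores, and the share of all factors with scores of size 2 or more is not given. Of the RIF scores of the members 5 had a size of 2 or more and 2 when centred by series, where RIF1 of SOX4 was 1.20. The cause was not tested. The first SIX4 probe set and DACH1 have low levels, where GCRMA values depend most on the background.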
